A study of Mus musculus with 4 samples.

Results

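The genes of the TRAF family, *Traf1* to *Traf7*, were followed in RNA-seq data of quiescent follicular B cells sorted from mouse spleen. The family was chosen by gene symbol, with all 7 of its members found among the 23305 genes of the deposited tables, but it was proposed with the WT against Ets1-/- differences of these same libraries already known, *Traf1* and *Traf4* among them. The genotype differences of the 7 genes are therefore selected on measured values and are given as a description, with no test of the family. The data are 4 libraries, 2 from WT mice of strain C57BL/6 and 2 from Ets1-/- mice of strain C57BL/6 x 129Sv, all from female mice. Strain and genotype change together and cannot be told apart here. The age of the mice and whether animals were pooled are not given in the sources used here, and each genotype has 2 biological replicates. The sort kept cells that were B220+, CD23 high and CD21 low and lacked CD80 and the switched isotypes IgA, IgE and IgG, so it set a resting state and B cell identity in advance. Expression is given as FPKM, the number of sequenced fragments scaled for transcript length and for the mapped fragments of the library, which the authors estimated with Cuffdiff after alignment to the mm9 genome.

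TRAF proteins are cytoplasmic adaptors that carry signals from receptors which have no enzymatic activity of their own. Members of the TNF receptor family, such as CD40 and the BAFF receptor on B cells, recruit TRAF proteins to their tails through the conserved TRAF domain, while Toll-like and interleukin-1 receptors reach TRAF6 through MyD88 and the IRAK kinases. Most TRAF proteins carry a RING finger, the mark of ubiquitin ligases, and from there activate the NF-kB and MAP kinase pathways. In B cells TRAF2 and TRAF3, together with the ubiquitin ligases cIAP1 and cIAP2, keep the kinase NIK low and so hold back the alternative NF-kB pathway until CD40 or the BAFF receptor is engaged.

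The sorted cells carried their lineage markers in every library. *Ms4a1*, which encodes the B cell surface protein CD20, had 637 and 678 FPKM in WT and 689 and 604 FPKM in Ets1-/- B cells. *Pax5*, the transcription factor gene of B cell identity, had 213 and 226 FPKM in WT and 269 and 201 FPKM in Ets1-/- B cells. *Fcer2a*, which encodes the CD23 used in the sort, had 664 and 544 FPKM in WT and 488 and 559.6 FPKM in Ets1-/- B cells. For each of these named genes the genotypes overlapped. Of the 10 follicular B cell markers listed, 7 overlapped, 2 lay below WT and 1 above, with 0 called. Over all genes tested, 41.6% did not overlap. *Ets1* itself had 231 and 275 FPKM in the WT libraries and 229 and 229.8 FPKM in the Ets1-/- libraries. A level over the whole gene does not check the labels, because only some of its exons are targeted in the knockout. The approximate depth, read from the steps between very low FPKM values, ranged from 0.886 to 1.77 relative to WT replicate 1, and each genotype had a deeper and a shallower library. The reads behind each value are not part of the tables, so no counting interval is given. The p-values and standard errors below rest only on the spread between these 4 samples, which the limma fit shares over all genes tested. In bulk RNA, fewer cells of a type and less RNA per cell cannot be told apart.

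All 7 *Traf* genes were expressed in resting WT follicular B cells, at mean levels between 12.7 and 58.6 FPKM. For comparison, the median over the 10949 genes with a mean of at least 1 FPKM in either genotype was 14.1 FPKM in WT. *Traf5* and *Traf7* were the most abundant members, followed by *Traf2*, *Traf1*, *Traf3*, *Traf4* and *Traf6*. This order was the same in both WT libraries. Of its 6 pairs of neighbours only *Traf5* and *Traf7* had overlapping ranges, while *Traf3* and *Traf4* stood apart by a ratio of means of just 1.06. In Ets1-/- B cells the order, which was again the same in both libraries, was *Traf5*, *Traf7*, *Traf2*, *Traf3*, *Traf6*, *Traf4* and *Traf1*, and again only *Traf5* and *Traf7* overlapped. *Traf1* thus went from the fourth to the last place of the family. Levels of different genes can be set side by side because FPKM is divided by transcript length, but the annotation that gave those lengths is not given in the sources used here.

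**Figure D1:**
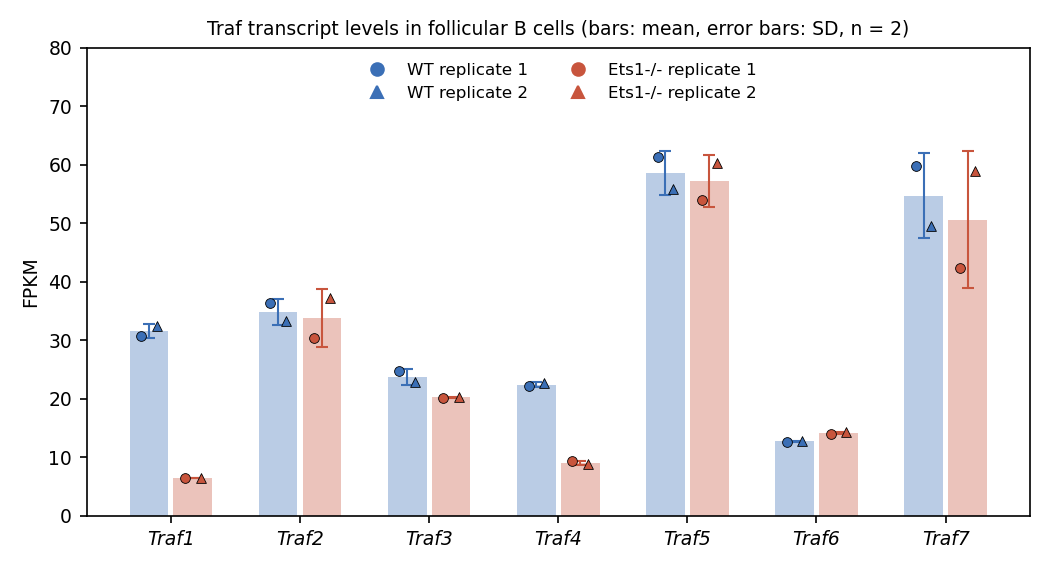
FPKM of each *Traf* gene in the 2 WT (blue) and 2 Ets1-/- (red) libraries of follicular B cells. Points are single libraries, bars the mean and error bars the SD of 2 replicates. *Traf1* and *Traf4* lie far lower in both Ets1-/- libraries. The other 5 genes differ less, and the genotypes overlap for *Traf2*, *Traf5* and *Traf7* but not for *Traf3* and *Traf6*.

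*Traf1* encodes the member that has no RING finger and that acts through TRAF2, with which it forms mixed trimers, and it is known as a target gene of NF-kB that rises on B cell activation. Its level was 30.7 and 32.4 FPKM in the WT replicates and 6.38 and 6.47 FPKM in the Ets1-/- replicates. The replicates of each genotype lay close together and the genotypes were far apart. The WT mean was 31.6 ± 1.19 FPKM and the Ets1-/- mean 6.42 ± 0.0606 FPKM (each SD, n = 2), so that the level fell 4.92-fold. On the log2(FPKM + 1) scale the difference was -2.13 (standard error 0.13), and 71 of the 10949 genes tested had a lower value. In mm9 the gene occupies bases 34797270 to 34817292 of chromosome 2, minus strand. It overlaps no other annotated gene and has 9 annotated transcripts, of which the longest coding sequence spans 1227 bases.

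*Traf4*, first described in breast carcinoma and less tied to TNF receptors than its relatives, was the other member that was clearly lower. It had 22.1 and 22.7 FPKM in the WT replicates and 9.32 and 8.77 FPKM in the Ets1-/- replicates. As for *Traf1*, replicates were close and genotypes did not overlap. The WT mean was 22.4 ± 0.410 FPKM and the Ets1-/- mean 9.04 ± 0.390 FPKM (each SD, n = 2), so that the level fell 2.47-fold, a log2 difference of -1.22 (standard error 0.13). In mm9 *Traf4* occupies bases 77972001 to 77979091 of chromosome 11, minus strand, and likewise overlaps no other annotated gene.

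*Traf2*, which encodes the adaptor that joins TNF receptors, TRAF1 and the cIAP ligases, had 36.4 and 33.2 FPKM in WT and 30.3 and 37.3 FPKM in Ets1-/- B cells. Its log2 difference was -0.05 (standard error 0.16) and the genotypes overlapped, the Ets1-/- replicates lying on either side of the WT pair. *Traf3*, which encodes the brake on the kinase NIK, had 24.7 and 22.8 FPKM in WT and 20.1 and 20.3 FPKM in Ets1-/- B cells. Both Ets1-/- values of *Traf3* lay below both WT values, at a ratio of means of 1.18 and a log2 difference of -0.22 (standard error 0.13). *Traf5*, the close relative of *Traf3* that can signal from CD40 and CD27, had 61.2 and 55.9 FPKM in WT and 54.0 and 60.4 FPKM in Ets1-/- B cells. The genotypes of *Traf5* overlapped, and the log2 difference was -0.04 (standard error 0.15).

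*Traf6*, which encodes the ligase of the Toll-like and interleukin-1 receptor route, had the lowest level of the family in WT, 12.6 and 12.8 FPKM, and had 14.0 and 14.3 FPKM in Ets1-/- B cells. It was the single member whose Ets1-/- values both lay above the WT values, at a ratio of means of 1.11 and a log2 difference of 0.14 (standard error 0.13). *Traf7*, the outlying member whose protein has WD40 repeats in place of the TRAF domain, had 59.8 and 49.6 FPKM in WT and 42.4 and 58.9 FPKM in Ets1-/- B cells. With SDs of 7.25 FPKM in WT and 11.7 FPKM in Ets1-/- B cells, *Traf7* had the widest spread between replicates of the family, and its genotypes overlapped, with a log2 difference of -0.12 (standard error 0.21).

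To be called, a gene needed a log2 difference of 1 or more in either direction together with a Benjamini-Hochberg adjusted p no higher than 0.05, from a limma fit of the 10949 genes tested. All 7 members passed the filter on low values. Of the 7, 2 were called, both lower in Ets1-/- B cells, against 1.70% of all genes tested called in either direction, 0.822% called lower and 0.877% called higher. Both Ets1-/- values lay below both WT values for 3 members, against 22.2% of all genes tested, and above them for 1 member. The genotypes did not overlap for these 4 members, against 41.6% of all genes. The median log2 difference was -0.12 over the members and -0.02 over all genes tested. Because the family was picked with this contrast in view, nothing is read from these counts. *Traf1* was called under each alternative run, by its ratio alone where that alternative had no test, and *Traf4* was not called when any 1 of the 4 libraries was left out or when all genes above 0 were tested, although its log2 difference held between -1.26 and -1.18 over the fits on the log2(FPKM + 1) scale.

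**Figure D2:**
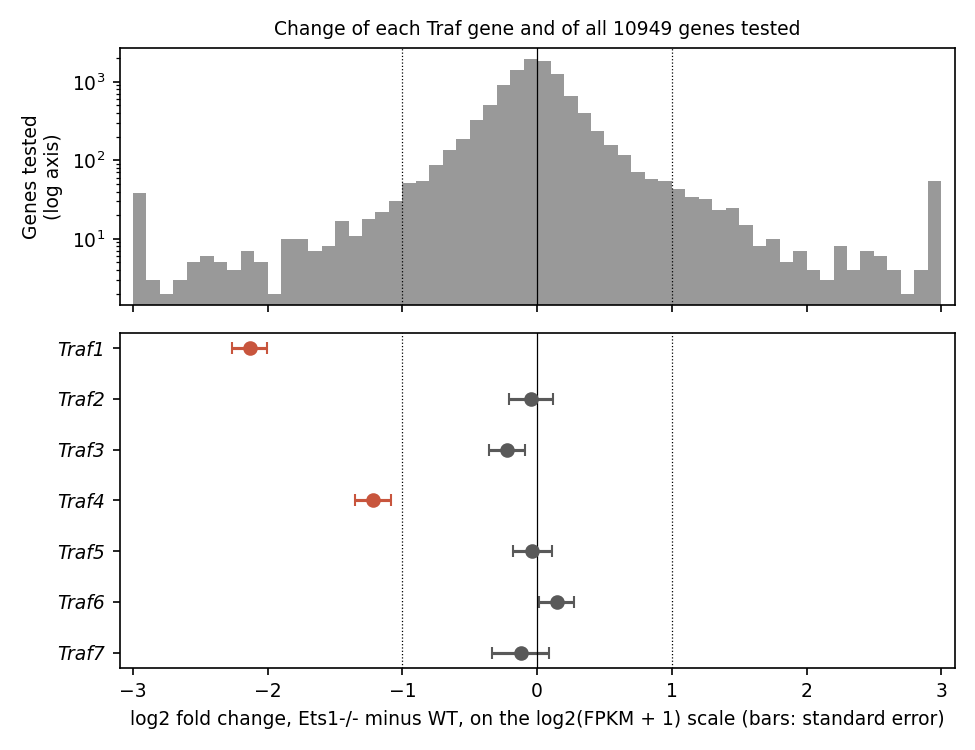
Top, number of genes (log axis) by log2 fold change, Ets1-/- minus WT, over all 10949 genes tested, with values beyond 3 gathered in the end bins. Bottom, the same quantity for each *Traf* gene with its standard error, called genes in red. Dotted lines mark a log2 difference of 1 in either direction, which only *Traf1* at -2.13 and *Traf4* at -1.22 pass.

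The make-up of the family changed with these genes. The summed level of the 7 members was 248 and 229 FPKM in the WT libraries and 177 and 206 FPKM in the Ets1-/- libraries. Without *Traf1* and *Traf4*, the sum of the other 5 was 195 and 174 FPKM in WT and 161 and 191 FPKM in Ets1-/- B cells, so that the genotypes overlapped. *Traf1* made up 12.4% and 14.1% of the family in WT and 3.61% and 3.13% in Ets1-/- B cells. *Traf4* made up 8.92% and 9.88% in WT and 5.28% and 4.25% in Ets1-/- B cells. The *Traf1* level stood at percentile 73.7 of all genes tested in WT and at percentile 29.7 in Ets1-/- B cells. Ratios taken within a library do not depend on how libraries were scaled against each other. The ratio of *Traf1* to its binding partner *Traf2* was 0.844 and 0.976 in WT and 0.211 and 0.173 in Ets1-/- B cells, and the genotypes stood well apart. By contrast, the ratio of *Traf5* to *Traf2* was 1.68 in both WT libraries and 1.78 and 1.62 in the Ets1-/- libraries. The ratio of *Traf3* to *Traf2* was 0.679 and 0.686 in WT and 0.665 and 0.544 in Ets1-/- B cells, lower in both Ets1-/- libraries but by unequal amounts.

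**Figure D3:**
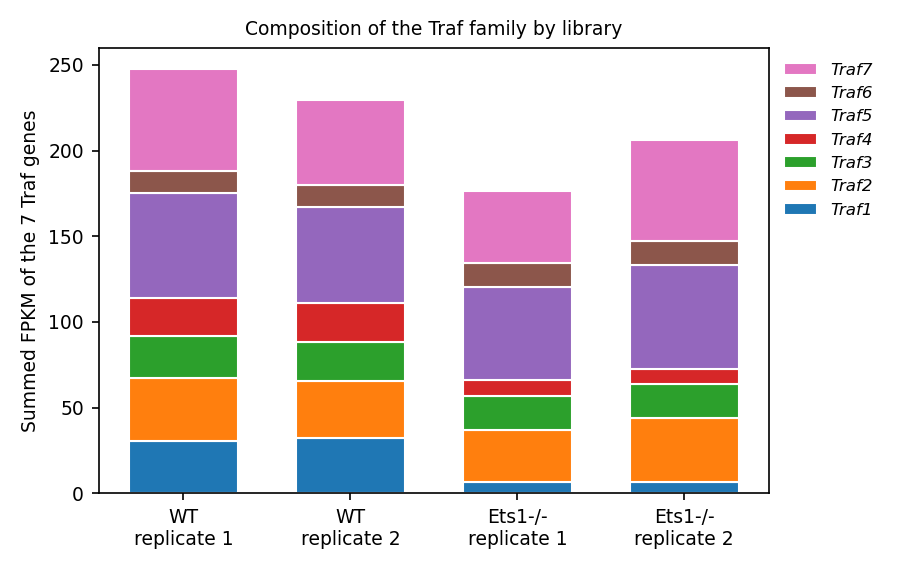
Summed FPKM of the 7 *Traf* genes in each library, stacked by gene. The *Traf1* segment at the base shrinks from 30.7 and 32.4 FPKM in WT to 6.38 and 6.47 FPKM in Ets1-/- B cells, and the *Traf4* segment shrinks with it.

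The 250 bases before the transcription start of each member were read from RefSeq (GRCm38.p6) for all 7 genes, and each stretch had exactly 1 match in mm9. They are shown because Ets1 is a DNA-binding factor whose family recognises the core GGAA, and because 2 members were lower without it. Searched on both strands, the flanked forms CGGAAG and AGGAAG were present before 4 of the 7 members, *Traf2*, *Traf4*, *Traf6* and *Traf7*, while 39.2% of 32851 RefSeq promoters of the same length hold at least 1 of them. CGGAAG alone occurs in 13.6% and AGGAAG alone in 29.5% of these promoters. *Traf1*, the member with the largest difference, had neither of the flanked forms. It held the core GGAA at 2 places, as did all 7 members at 1 or more, and the core is in 93.4% of promoters. The *Traf1* stretch, chr2:34817293-34817542 of mm9 on the minus strand, is printed with both matches, read as TTCC on the strand of the gene, in capitals.
Traf1: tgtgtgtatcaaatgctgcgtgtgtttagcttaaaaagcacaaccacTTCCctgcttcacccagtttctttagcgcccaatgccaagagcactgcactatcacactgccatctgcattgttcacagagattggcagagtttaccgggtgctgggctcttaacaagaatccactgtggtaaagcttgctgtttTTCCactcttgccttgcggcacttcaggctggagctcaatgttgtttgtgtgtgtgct

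The flanked matches of the other members are shown with their surroundings, 30 bases each on the strand of the gene, with the match in capitals, so that the member that was lower can be set beside members that were not. The CGGAAG of *Traf4* lay 37 to 32 bases before the RefSeq start, which is 39 bases inside the longer start of the GENCODE annotation. The CGGAAG of *Traf2* lay 94 to 89 bases and that of *Traf7* 16 to 11 bases before the start, and the RefSeq start used for *Traf7* is 8730 bases from the GENCODE start. The 250 bases of *Traf7* overlap an annotated exon of *Rab26*, and those of *Traf4* an annotated exon of *Traf4* itself. *Traf2* held 2 flanked matches and *Traf7* held 3, of which 1 each is shown. *Traf6* held AGGAAG at 160 to 155 and at 105 to 100 bases before its start, of which the nearer is shown. The windows are chr11:77979072-77979101 for *Traf4*, chr2:25402537-25402566 for *Traf2*, chr17:24664884-24664913 for *Traf7* and chr2:101518460-101518489 for *Traf6*, all on mm9.
Traf4: gctccgccccctCTTCCGgcgggcggggtt
Traf2: ggtaggttcctgCTTCCGtctgtcagcggg
Traf7: agtacagaggtcgcCGGAAGtcgtagttta
Traf6: aacttctttgcgAGGAAGggcggggtaagg

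For *Traf4* and *Traf2* the match stands on the opposite strand and so reads CTTCCG. A flanked match was thus found before 1 of the 2 members called and before 3 of the 5 others, and these letters mark no measured binding. Ets1 binding was measured separately in the study. Its paper lists *Traf1* and *Traf4* among putative Ets1 targets that have a nearby binding peak. Those binding data were not examined here. The kappa-B consensus, the site of NF-kB, was searched in the same stretches because *Traf1* is known as an NF-kB target. It was found on either strand before 1 member, *Traf3*, in the last 10 bases before the start, and it is present in 7.25% of promoters. The *Traf3* window, chr12:112404551-112404580 of mm9 on the plus strand, is printed with the match in capitals.
Traf3: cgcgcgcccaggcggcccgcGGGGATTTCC

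No member lies on chromosome 9, which carries *Ets1*. This does not tell strain and genotype apart, because the mixed strain of the Ets1-/- mice is not limited to that chromosome. *Traf1*, *Traf2* and *Traf6* are on chromosome 2, far from each other, and the others are on chromosomes 1, 11, 12 and 17. The nearest tested gene on each side of each member was examined, 14 neighbours in all, and 0 were called. The neighbours with the largest differences were those of the 2 lower members. *Phf19*, a Polycomb-associated gene 27.7 kb downstream of *Traf1*, had 3.98 and 5.57 FPKM in WT and 2.12 and 2.48 FPKM in Ets1-/- B cells, a log2 difference of -0.80 (standard error 0.19, limma adjusted p = 0.154). *Nek8*, a kinase gene on the same strand that ends 517 bases before the GENCODE start of *Traf4*, had 10.6 and 9.58 FPKM in WT and 4.81 and 6.05 FPKM in Ets1-/- B cells. Its log2 difference was -0.79 (standard error 0.16, limma adjusted p = 0.109). For the other 12 neighbours the log2 difference lay between -0.29 and 0.15, although the nearest tested gene on the lower-coordinate side of *Traf6* is 7240 kb away. Transcripts overlapping *Traf2*, *Traf3*, *Traf5* and *Traf7* are annotated, mostly on the opposite strand, and whether fragments were counted by strand is not given in the sources used here. *Caskin1*, which overlaps *Traf7* on the opposite strand, was between 0.0449 and 0.189 FPKM in the 4 libraries.

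The genes around the TRAF proteins were examined in 6 lists, namely TNF family receptors, TNF family ligands, the Toll and interleukin-1 receptor arm, direct partners and regulators, downstream kinases, and NF-kB subunits with their inhibitors. Of 115 listed genes 92 were expressed highly enough to be tested, and 0 of the 92 were called by limma, against 1.70% of all genes tested. Before adjustment 10 of the 92 had a p under 0.05, as had 13.3% of all genes tested. With robust variance estimation the count was also 0. The median log2 difference over the 92 genes was -0.002, with a range from -0.84 to 1.04.

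**Figure D4:**
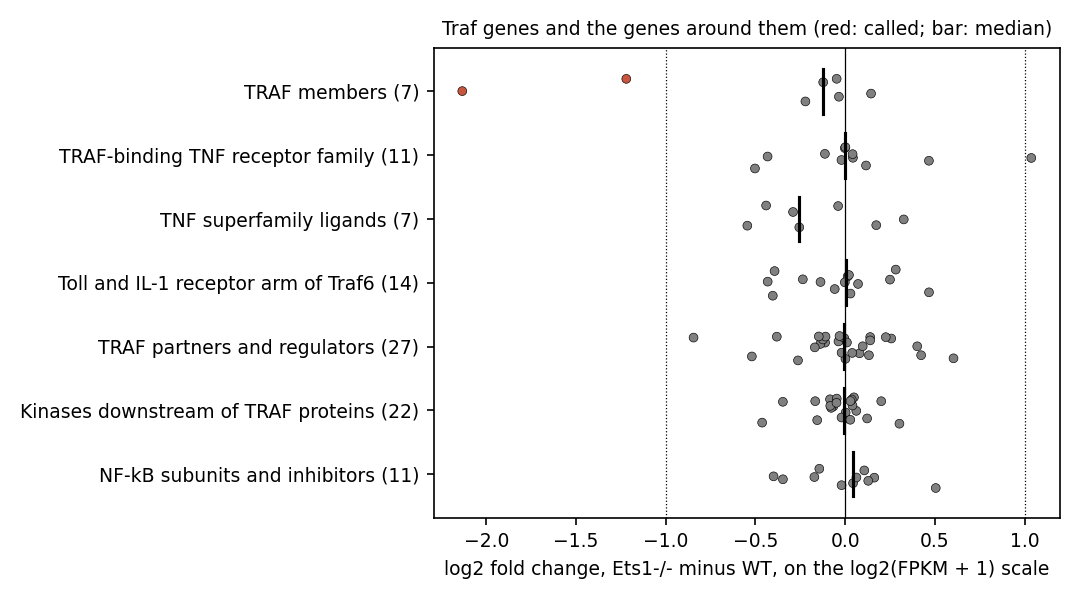
log2 fold change, Ets1-/- minus WT, of each tested gene of the TRAF family and of the 6 lists around it, with the number of genes in parentheses. Vertical bars are list medians, dotted lines mark a log2 difference of 1, and called genes are red. *Traf1* and *Traf4* are the only called genes, and *Ngfr* at 1.04 lies past the dotted line without being called.

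Of the 18 receptors 11 were tested, 0 were called and 3 had an unadjusted p under 0.05. *Cd40*, the receptor for T cell help, had 95.5 and 95.4 FPKM in WT and 90.8 and 107 FPKM in Ets1-/- B cells, a log2 difference of 0.04 (standard error 0.15). The ratio of *Traf1* to *Cd40* was 0.322 and 0.340 in WT and 0.0703 and 0.0606 in Ets1-/- B cells, whereas that of *Traf2* to *Cd40* was 0.381 and 0.348 in WT and 0.334 and 0.350 in Ets1-/- B cells. The lowest log2 difference among the receptors was that of *Tnfrsf13c*, the BAFF receptor, with 249 and 220.3 FPKM in WT and 172 and 159 FPKM in Ets1-/- B cells. Its log2 difference was -0.50 (standard error 0.16, limma adjusted p = 0.256). *Tnfrsf13b*, which encodes the receptor TACI, overlapped between the genotypes, at 74.7 and 55.0 FPKM in WT and 46.5 and 75.3 FPKM in Ets1-/- B cells. *Ngfr*, the low-affinity nerve growth factor receptor, had the highest log2 difference, 1.04 (standard error 0.27, limma adjusted p = 0.178). It had 3.04 and 3.08 FPKM in WT and 5.41 and 9.82 FPKM in Ets1-/- B cells, and its larger Ets1-/- value came from replicate 2. *Ltbr* and *Tnfrsf17*, which encode the lymphotoxin beta receptor and BCMA, were under 1 FPKM in all 4 libraries and were not tested.

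Of the 16 ligands 7 were tested and 0 were called, while 2 had an unadjusted p under 0.05. Their median log2 difference was -0.26. *Lta*, which encodes lymphotoxin alpha, had the lowest, with 40.5 and 38.5 FPKM in WT and 29.6 and 24.2 FPKM in Ets1-/- B cells, a log2 difference of -0.55 (standard error 0.16, limma adjusted p = 0.209). *Tnfsf8*, the ligand of CD30, had the highest at 0.33 (standard error 0.15). Of the 18 genes of the Toll and interleukin-1 receptor arm 14 were tested, 0 were called, and 2 had an unadjusted p under 0.05. The adaptor *Myd88* had 28.3 and 28.6 FPKM in WT and 25.7 and 32.2 FPKM in Ets1-/- B cells, so that the genotypes overlapped. Log2 differences were 0.28 (standard error 0.17) for the kinase *Irak1* and -0.24 (standard error 0.13) for *Irak4*. The ends of this list were the adaptors *Tirap*, at -0.43, and *Ticam2*, at 0.47.

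Of the 30 partners and regulators 27 were tested, 0 were called and 3 had an unadjusted p under 0.05. *Tifa*, which encodes a protein that binds and activates TRAF6, had 13.6 and 13.3 FPKM in WT and 6.62 and 7.46 FPKM in Ets1-/- B cells. The genotypes of *Tifa* did not overlap, and the log2 difference was -0.84 (standard error 0.14, limma adjusted p = 0.0648), outside both thresholds. *Traf3ip3*, which encodes a TRAF3-interacting protein, had 138 and 121 FPKM in WT and 83.1 and 96.6 FPKM in Ets1-/- B cells, a log2 difference of -0.52 (standard error 0.16, limma adjusted p = 0.248). *Traf3ip2*, the interleukin-17 receptor adaptor Act1, and *Trafd1*, an inhibitor of Toll-like receptor signals, had overlapping genotypes, with log2 differences of -0.12 and 0.14. The cIAP genes *Birc2* and *Birc3* had log2 differences of 0.00 (standard error 0.25) and -0.11 (standard error 0.15). *Tnfaip3*, which encodes the deubiquitinase A20 and is induced by NF-kB, had the highest log2 difference of the list, 0.60 (standard error 0.27, limma adjusted p = 0.450). Its values of 27.4 and 31.0 FPKM in WT and 58.3 and 34.4 FPKM in Ets1-/- B cells put much of that difference in Ets1-/- replicate 1. *Cyld*, another deubiquitinase, and *Tank*, a TRAF-binding adaptor, overlapped between the genotypes, with log2 differences of -0.11 and -0.38.

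All 22 downstream kinases and kinase adaptors were tested, and 0 were called, with 0 at an unadjusted p under 0.05. Their log2 differences lay between -0.46, for the JNK gene *Mapk8*, and 0.30, for *Ikbke*. *Map3k14*, which encodes the kinase NIK that TRAF3 holds in check, had 30.7 and 30.5 FPKM in WT and 27.7 and 34.2 FPKM in Ets1-/- B cells, a log2 difference of 0.01 (standard error 0.16). The 11 genes of NF-kB subunits and inhibitors were likewise all tested, with 0 called and 0 at an unadjusted p under 0.05. *Nfkb2*, the subunit of the alternative pathway, had 125 and 106 FPKM in WT and 81.4 and 100.5 FPKM in Ets1-/- B cells, a log2 difference of -0.35 (standard error 0.18, limma adjusted p = 0.545). The other subunits overlapped between the genotypes, with log2 differences of 0.16 for *Nfkb1*, 0.04 for *Rela*, -0.14 for *Rel* and -0.17 for *Relb*. *Nfkbia*, the classical inhibitor and itself an NF-kB target, had the highest log2 difference, 0.50 (standard error 0.20), and *Nfkbid* the lowest, -0.40 (standard error 0.28).

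The genes whose profile over the 4 libraries was most like that of *Traf1* and *Traf4* were found by Euclidean distance between log2(FPKM + 1) values, each taken from the WT mean of its gene. Nearest to *Traf1* were *Cldn10*, *Hcst*, *Rnpep*, *Fxyd5* and *Thy1*, at distances from 0.0692 to 0.206. *Hcst*, which encodes the signalling adaptor DAP10, had 53.3 and 61.0 FPKM in WT and 11.6 and 11.5 FPKM in Ets1-/- B cells. *Fxyd5*, which encodes a regulator of the sodium pump, had 134 and 144 FPKM in WT and 34.4 and 29.7 FPKM in Ets1-/- B cells. Nearest to *Traf4* were *Pip5k1b*, *3300005D01Rik*, *Ap1m2*, *2610035D17Rik* and *Gimap4*, at distances from 0.0842 to 0.152. *Pip5k1b*, a lipid kinase gene, had 6.53 and 6.48 FPKM in WT and 2.29 and 2.31 FPKM in Ets1-/- B cells. These genes were picked for the likeness, over 4 libraries only, so that their lower level in Ets1-/- B cells follows from the choice.

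Markers of other cells were compared between the libraries, since TRAF genes are also expressed outside B cells. The counts of each marker list are to be read beside the shares over all 10949 genes tested. Of those genes 41.6% did not overlap between the genotypes, and for 22.2% both Ets1-/- values lay below both WT values. The 12 neutrophil markers summed to 114.7 and 96.3 FPKM in WT and to 2569 and 705 FPKM in Ets1-/- B cells. Both Ets1-/- values lay above both WT values for 11 of the 12, and 3 of them, *Camp*, *Ngp* and *Ltf*, were called higher. In the same Ets1-/- libraries *Traf1* had 6.38 and 6.47 FPKM and *Traf4* 9.32 and 8.77 FPKM. Whether neutrophil RNA bears on these *Traf* values was not tested. The 5 erythroid markers found, of 6 listed, summed to 1.15 and 0.766 FPKM in WT and to 6.54 and 2.79 FPKM in Ets1-/- B cells, and all 5 were higher in both Ets1-/- libraries. Only 1 of the 5 was high enough to be tested, and it was not called.

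The 12 monocyte, macrophage and dendritic cell markers summed to 68.1 and 33.6 FPKM in WT and to 154 and 99.6 FPKM in Ets1-/- B cells. Of these markers 4 lay above WT without overlap, 0 below and 8 overlapped, and the sum was carried by *Lyz2* and *Emr1*. *Emr1*, the macrophage gene of F4/80, was the 1 called higher, with 2.35 and 2.63 FPKM in WT and 23.5 and 37.2 FPKM in Ets1-/- B cells. The macrophage genes *Csf1r* and *Cd68* overlapped between the genotypes.

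The 7 NK cell markers summed to 44.8 and 31.2 FPKM in WT and to 21.4 and 30.4 FPKM in Ets1-/- B cells, with 0 called. Of the 7, 5 were lower in both Ets1-/- libraries, *Ncr1*, *Klrb1c*, *Klrd1*, *Prf1* and *Gzma*, against 22.2% of all genes tested. *Eomes* was higher in both, and *Nkg7*, with a mean of 14.4 FPKM in WT and 16.8 FPKM in Ets1-/- B cells, overlapped. The 12 T cell markers summed to between 111 and 136 FPKM in WT and between 115 and 138 FPKM in Ets1-/- B cells, with 0 called. Of these 12, 3 lay below WT, 1 lay above and 8 overlapped, while 41.6% of all genes tested did not overlap. *Thy1*, a T cell surface gene outside this list, was called lower, and was picked above for its likeness to *Traf1*. It had 17.4 and 16.2 FPKM in WT and 3.38 and 3.39 FPKM in Ets1-/- B cells.

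The 6 plasma cell markers summed to between 168 and 189 FPKM in WT and between 138 and 152 FPKM in Ets1-/- B cells, with 0 called. Of the 6, 3 lay below WT, *Xbp1*, *Irf4* and *Tnfrsf17*, and 1, *Igj*, overlapped, while *Sdc1* and *Prdm1* lay above. The sum was carried by *Igj*, *Xbp1* and *Irf4*. *Sdc1* had 7.11 and 5.13 FPKM in WT and 9.72 and 19.8 FPKM in Ets1-/- B cells. *Prdm1* had 0.580 and 0.672 FPKM in WT and 1.68 and 1.48 FPKM in Ets1-/- B cells. The 6 marginal zone B cell markers had overlapping sums, 372 to 447 FPKM in WT and 387 to 425 FPKM in Ets1-/- B cells, but their members differed. *Cr2*, which encodes the CD21 used in the sort, had 102 and 116 FPKM in WT and 65.1 and 29.95 FPKM in Ets1-/- B cells. *Dtx1*, a regulator of Notch signals, had 63.6 and 78.9 FPKM in WT and 48.8 and 40.8 FPKM in Ets1-/- B cells. *Mzb1*, which encodes a chaperone of antibody assembly, lay the other way, with 175 and 215 FPKM in WT and 272 and 290.5 FPKM in Ets1-/- B cells. None of these 6 was called. No marker found was at 0 in any library. The part of these cells in the differences of the *Traf* genes was not tested. The marker genes named here were chosen after their values were seen.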

How the data were processed

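RNA of sorted follicular B cells was sequenced by the authors in 4 libraries, 2 per genotype. Per the submitters' processing notes, reads were aligned to mm9 with TopHat2 2.0.13 and expression was estimated with Cuffdiff, whose version, gene annotation and scaling between libraries are not given in the sources used here. The deposited tables hold 1 FPKM value per gene symbol and library, so division by length and by mapped fragments was done before deposit, and fragment counts could not be tested. Each table has 23309 entries, and 4 whose symbol occurs more than once were dropped. The values were taken as log2(FPKM + 1), which understates changes of low genes, and the 10949 genes with a mean of at least 1 FPKM in either genotype entered a limma 3.58.1 fit with an intensity trend (R 4.3.3), with Benjamini-Hochberg adjustment over all of them. The fit was tested on simulated data. By an exact permutation test 2 samples against 2 cannot go below a two-sided p of 0.333, so no gene was tested by permutation. The p-values of single genes come from the limma fit over all genes. Fold changes are Ets1-/- minus WT. Positions are from GENCODE M1 of mm9, which matched 21162 symbols (90.8%), and promoters from the RefSeq table of GRCm38.p6, placed on mm9 by exact match. Python 3.11.15 with pandas 2.3.3 was used for the rest.

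The members and lists were chosen with earlier results of these data known. Genes named are the members, the called and the most extreme genes of each list, well-known TRAF partners, the nearest tested neighbours, the 5 genes most like *Traf1* and *Traf4*, and *Ets1*. Alternatives covered the pseudocount, the filter, the replicate block, scaling, robust variance, each library left out and no test. Protein sequences were not analysed here, and 1 marker gene of the follicular B cell list is not reported here.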

Additional observations from a re-analysis of the deposited data

How the results depend on the processing

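Of the *Traf* genes, *Traf1* and *Traf4* were called in the fit as reported, and the count of 2 fell to 1, *Traf1*, when genes above 0 in any library were tested and when any 1 library was left out (range 1 to 1). *Traf1* had a log2 difference between -2.17 and -2.10 over the fits on the log2(FPKM + 1) scale. *Traf2*, *Traf5* and *Traf7* turned sign with the library left out, with ranges from -0.19 to 0.10, from -0.11 to 0.04 and from -0.36 to 0.11, so no direction is given for them. *Traf3* held between -0.28 and -0.16 and *Traf6* between 0.13 and 0.18. The number of genes called, 186, fell to 75 when all genes above 0 were tested, rose to 305 with robust variance estimation and to 803 by the ratio of mean FPKM without a test, and lay between 130 and 144 with a library left out. The 0 of the lists rose to 1, *Ngfr*, both by the ratio of means without a test and when crossed numbers formed the block. Replicate numbers are shared between the genotypes, but the deviations of same-numbered libraries correlated negatively (-0.21 across 10949 genes), so the numbers alone do not pair them. With the replicate block 266 genes were called, among them *Traf1* and *Traf4* and 0 of the list genes, and with the crossed pairing, chosen after seeing the data, 409. Among the other genes named, the replicate block ended the call of *Gimap4* (limma adjusted p = 0.0524). The order of levels was the same in both libraries of a genotype and differed between the genotypes. With the core GGAA alone, 7 members held a match in place of 4. Of 54 genes named beside the members 21 turned sign under at least 1 alternative, and 2, *Ngfr* and *Phf19*, passed the threshold under at least 1, *Phf19* only by the ratio of means without a test. Of the 10 genes most like *Traf1* or *Traf4* 0 turned sign and 5, those like *Traf4*, lost the call under at least 1. The causes were not tested. With 2 libraries per genotype and no counts, a change near the fold threshold may have gone uncalled, so 0 called in a list does not show that its genes did not change.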
